A study of Oryza sativa with 12 samples.

Results

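The roots of the rice line Os1400 were compared with those of WT (Nipponbare) at normal phosphate supply (+Pi), across gene families and functions. This comparison holds 6 of the 12 RNAseq libraries of the study, chosen by their labels, with 3 Os1400 +Pi libraries and 3 WT +Pi libraries. Os1400-12SIII is a CRISPR/Cas9 mutant in the Nipponbare background, described by the study as biallelic and homozygous, in which OsMAX1-1400 (Os01g0701400) is disrupted. Seedlings of both genotypes grew in hydroponic culture with the +Pi solution (0.4 mM Pi) for 2 wk and were 3 wk old at harvest, and the other 6 libraries come from the same genotypes at 0.004 mM Pi (low-Pi). The mutant group is 1 line, made by transformation with the vector pRGEB32, so an effect of the edited gene and any other difference of this line from WT cannot be told apart. The labels do not say that the 3 libraries of a group came from separate cultures, and the p-values measure only the spread between these libraries.

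Strigolactones (SLs) are carotenoid-derived hormones that plants also release from their roots, where they act as signals for mycorrhizal fungi and for parasitic weeds. In rice, the cytochrome P450 enzymes of the MAX1 family convert carlactone to canonical SLs, and OsMAX1-1400 turns 4-deoxyorobanchol (4DO) into orobanchol. SL production in rice roots is low at sufficient phosphate and is induced by phosphate starvation. The question of the +Pi comparison is therefore how roots of the line with this gene disrupted differ from WT when they are not starved.

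The transcript of the edited gene could not check the genotype labels. Os01g0701400 has no row of counts at +Pi and is listed at 0 FPKM in the Os1400 and also in the WT libraries. Its transcript was thus not seen in WT roots at +Pi either. None of the 13 genes tested within 100 kb of the edited gene was called, of 25 genes listed there. The total counts ranged from 34879762 to 40652094 in Os1400 and from 34537076 to 41078078 in WT, so that 3 counts in a library correspond to 0.0723 to 0.0891 CPM, the counts scaled to the size of their library. Between 28737 and 29735 genes had a count in the Os1400 libraries, against 27191 to 28572 in the WT libraries. WT replicate 2 stood apart on the first principal component of the 6 libraries, at 128.8, whereas Os1400 lay between -69.68 and -56.54 and the other WT libraries at 24.93 and 29.16. Without that library, 136 genes were higher and 118 lower in Os1400.

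A total of 27777 genes were tested with the quasi-likelihood test of edgeR, and adjusted p-values are those of Benjamini and Hochberg over all of them. At an adjusted p of 0.05 or less, 150 genes were higher and 116 were lower in Os1400 roots. These are 0.54% and 0.418% of the genes tested, and 0.958% together. Before adjustment, 1456 genes (5.24%) were higher and 1341 (4.83%) lower at p-values up to 0.05, a limit called nominal below. The genes called higher had a median log2 fold change (log2FC, Os1400 over WT) of 1.76, and 121 of them exceeded a 2-fold change. The genes called lower had a median log2FC of -1.27, with 69 beyond 2-fold, whereas the median over all genes tested was 0.01. The libraries of both genotypes did not overlap for any of the 266 genes, against 9.12% of all genes lying wholly above WT and 7.75% wholly below.

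**Figure D1:**
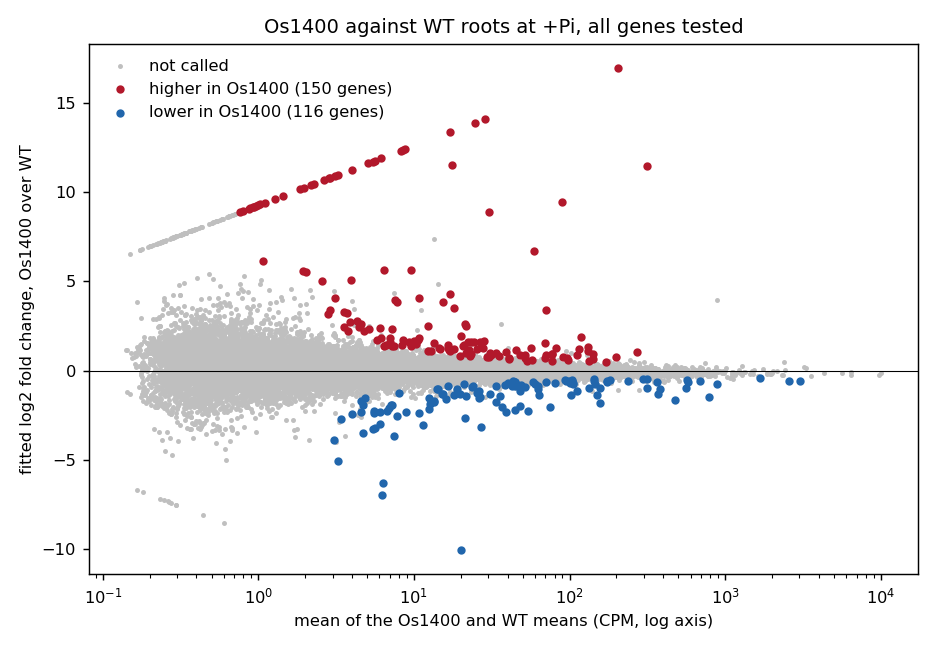
Each point is a gene tested at +Pi, with the mean of its Os1400 and WT means in CPM on a log axis and its fitted log2FC (Os1400 over WT) on the vertical axis. The 150 genes called higher are red and the 116 called lower are blue. The straight rows of points at the upper left and lower left are genes without counts in 1 genotype, whose fitted values depend on the prior count of the model.

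The number of calls moved with single libraries and with the fit. Leaving out 1 library at a time gave 79 to 136 higher and 54 to 118 lower genes, the lowest counts without Os1400 replicate 2 in both directions and, for the lower genes, also without WT replicate 1. In all 6 of these fits, 73 of the 150 higher genes (48.7%) and 38 of the 116 lower genes (32.8%) were called. When the low-Pi libraries were added to the fit and shared its estimate of the spread, 27 genes were called higher and 6 lower, all of them among the 266.

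Several genes of alcoholic fermentation were lower in Os1400 roots. When oxygen is short, root cells turn pyruvate into ethanol through pyruvate decarboxylase and alcohol dehydrogenase (ADH), which regenerates the NAD+ that glycolysis needs, and rice roots in standing solution use this pathway. ADH2 (Os11g0210500, chromosome 11, 5745005 to 5748092, minus strand) had 517, 426 and 321 CPM in Os1400, against 1190, 993 and 1310 CPM in WT. Its log2FC was -1.47 ± 0.16 (SE, n = 3 each) with an edgeR adjusted p of 0.000379. ADH1 (Os11g0210300) lies beside it and had 113, 82.4 and 72.6 CPM in Os1400 and 214, 154 and 170 CPM in WT. Every Os1400 library was below every WT library for both genes. ADH1 fell with a log2FC of -1.0 ± 0.17 and an edgeR adjusted p of 0.0104. ADH3 (Os11g0210600) of the same stretch was also lower in every Os1400 library, but its log2FC of -2.36 ± 0.70 did not pass (adjusted p = 0.205).

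Both called enzymes of pyruvate decarboxylation are neighbors on chromosome 5. Os05g0469800 (23065514 to 23068193, plus strand), which carries a thiamine pyrophosphate enzyme domain, had 24.5, 21 and 13.3 CPM in Os1400 and 64.6, 75.4 and 91.3 CPM in WT. Its log2FC was -1.98 ± 0.21 (edgeR adjusted p = 0.000336). PDC1 (Os05g0469600), named pyruvate decarboxylase 1, had 2.75, 2.22 and 1.9 CPM in Os1400 and 10.3, 12.8 and 16.4 CPM in WT, a log2FC of -2.52 ± 0.28 (adjusted p = 0.000585). Os06g0104900, with a lactate/malate dehydrogenase domain, was at 1.3, 1.42 and 0.35 CPM in Os1400 and at 6.04, 13.6 and 10.1 CPM in WT (log2FC -3.27 ± 0.50, adjusted p = 0.00537). The fermentation lists, taken by domain or by name, held 3 ADH genes, 9 with the thiamine pyrophosphate enzyme domain and 12 lactate and malate dehydrogenases. Not all of these enzymes act in fermentation. Of the 24 genes tested, 5 fell and 0 rose, with a median log2FC of -0.22, where 0.418% of all genes tested were called lower. These lists, and those of glycolysis, low oxygen, H1 and H4 histones, thionins, germins, A-type response regulators, wall-associated kinases and sugar carriers below, were drawn up after the values had been seen and carry no test of their own.

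Several genes known from low-oxygen responses in rice were lower too. Hemoglobin 2 (Os03g0226200), a globin of the class that scavenges nitric oxide, had 116, 48.9 and 40.7 CPM in Os1400, against 259, 189 and 285 CPM in WT (log2FC -1.83 ± 0.31, edgeR adjusted p = 0.0129). ERF66 (Os03g0341000), an ethylene response factor of the group that acts in low-oxygen signaling in rice, had 29.1, 13 and 5.75 CPM in Os1400 and 62.9, 60 and 96.9 CPM in WT (log2FC -2.20 ± 0.42, adjusted p = 0.0272). In both genes, Os1400 replicate 1 was the library closest to WT. The same held for ADH1, ADH2, PDC1 and Os05g0469800, but not for Os06g0104900. Hemoglobin 1 (Os03g0233900) overlapped between the genotypes, with a log2FC of -0.72 ± 0.23 and an adjusted p of 0.252. B12D-like protein 1 (Os07g0604700), a small mitochondrial protein family in rice, had 9.82, 4.07 and 2.35 CPM in Os1400 and 39.7, 35 and 71.1 CPM in WT (log2FC -3.17 ± 0.43, adjusted p = 0.00251). Its neighbor Os07g0604600 of the same family had 0.482 CPM in 1 Os1400 library and 0 in the others, against 13.7, 7.21 and 16.2 CPM in WT (edgeR adjusted p = 0.00301, DESeq2 adjusted p = 0.0814).

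A universal stress protein gene (Os10g0437500) had 1.11, 1.37 and 1.6 CPM in Os1400 and 8.98, 11.9 and 11.5 CPM in WT (log2FC -2.98 ± 0.30, edgeR adjusted p = 0.000276). A further gene with this domain (Os05g0170200) fell with a log2FC of -1.39 ± 0.21 and an adjusted p of 0.00517. Of 42 genes with a globin, B12D, universal stress protein, proton-pumping pyrophosphatase or PPDK-type domain, 7 fell and 0 rose, and their median log2FC was -0.23. The calls of hemoglobin 2 and ERF66 were lost when Os1400 replicate 2, WT replicate 1 or WT replicate 3 was left out, with adjusted p-values of up to 0.12 and 0.212. Those of ADH1 were lost without Os1400 replicate 2, Os1400 replicate 3 or WT replicate 1 (up to 0.104), whereas the calls of ADH2, PDC1, Os05g0469800, Os06g0104900, B12D-like protein 1 and both universal stress protein genes held in all 6 fits.

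**Figure D2:**
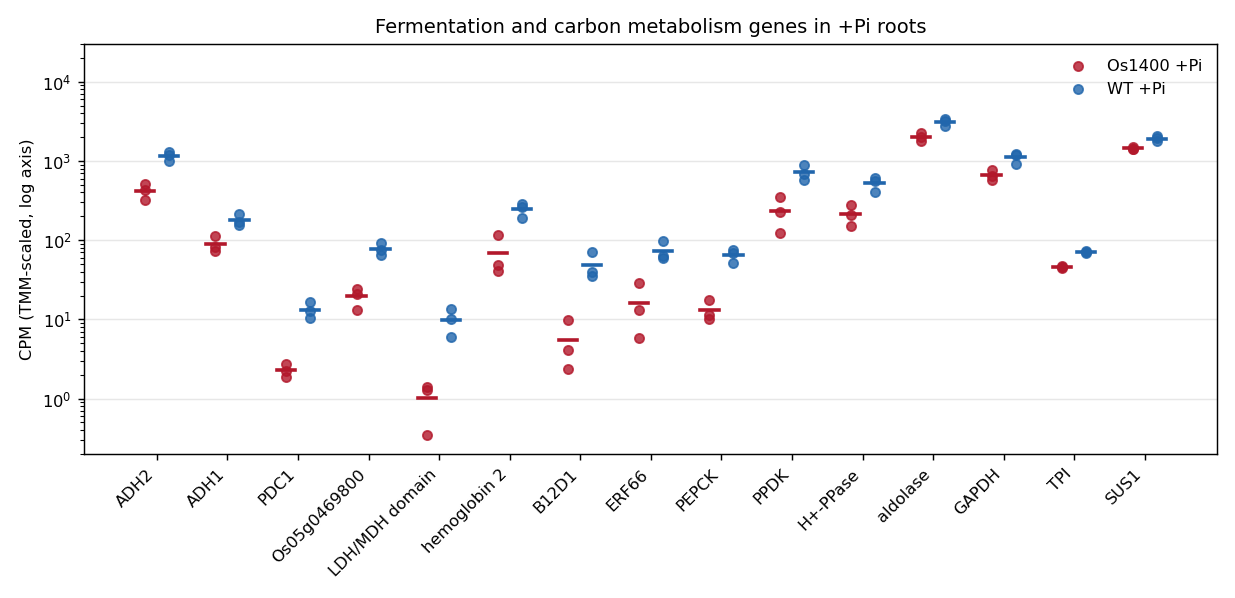
Each point is the CPM of 1 library on a log axis, Os1400 +Pi in red to the left of WT +Pi in blue, and each bar is the mean of 3 libraries. The 15 fermentation, low-oxygen and carbon metabolism genes shown were all called lower. No Os1400 library reached the lowest WT library of its gene, as in every gene called lower. LDH/MDH domain stands for Os06g0104900, H+-PPase for Os02g0802500 and TPI for Os01g0841600.

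Phosphoenolpyruvate carboxykinase and pyruvate orthophosphate dikinase, which both make phosphoenolpyruvate, were lower as well. Phosphoenolpyruvate carboxykinase (PEPCK, Os10g0204400, chromosome 10, 7438368 to 7444003, minus strand), which makes phosphoenolpyruvate from oxaloacetate, had 17.8, 10.2 and 11.3 CPM in Os1400 and 51.9, 75.5 and 69.2 CPM in WT. Its log2FC was -2.33 ± 0.22 (edgeR adjusted p = 0.000132), and it was among the 6 lower genes still called with all 12 libraries in the fit (adjusted p = 0.00921). PPDK (Os03g0432100), pyruvate orthophosphate dikinase, which makes phosphoenolpyruvate from pyruvate, had 348, 228 and 122 CPM in Os1400 and 691, 576 and 892 CPM in WT (log2FC -1.63 ± 0.28, adjusted p = 0.0141). The spread among the Os1400 libraries was wide for PPDK, and its call was lost without Os1400 replicate 2, WT replicate 1 or WT replicate 3 (up to 0.128). Os02g0802500, an inorganic pyrophosphatase that pumps protons, had 279, 210 and 153 CPM in Os1400 and 560, 411 and 608 CPM in WT (log2FC -1.30 ± 0.19, adjusted p = 0.00492). It was lost only without Os1400 replicate 2 (adjusted p = 0.0585).

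Glycolytic enzymes, which split sugars to pyruvate, had smaller differences at high levels. Cytosolic aldolase (Os01g0905800) had 2280, 2030 and 1800 CPM in Os1400, against 3200, 2750 and 3360 CPM in WT (log2FC -0.61 ± 0.10, edgeR adjusted p = 0.012). A glyceraldehyde phosphate dehydrogenase (Os02g0601300) had 760, 645 and 570 CPM in Os1400 and 1200, 925 and 1240 CPM in WT (log2FC -0.77 ± 0.13, adjusted p = 0.0118). Both tested triosephosphate isomerases fell, with log2FC of -0.58 ± 0.12 (Os01g0147900, adjusted p = 0.0427) and -0.63 ± 0.11 (Os01g0841600, adjusted p = 0.0129). Sucrose synthase 1 (SUS1, Os03g0401300), which cleaves sucrose, was at 1400, 1420 and 1520 CPM in Os1400 and at 2040, 1770 and 1950 CPM in WT (log2FC -0.41 ± 0.08, adjusted p = 0.0402). Among the phosphofructokinases (10 tested), phosphoglycerate kinases (3), enolases (5) and pyruvate kinases (8), edgeR called 0. Of 50 genes of sucrose cleavage and glycolysis, these included, 5 fell and 0 rose, with a median log2FC of -0.14. All of these 5 calls were lost without Os1400 replicate 2 or 3 or WT replicate 1 or 3, and that of SUS1 also without Os1400 replicate 1, with adjusted p-values of up to 0.246. Os1400 replicate 1 was again closest to WT for each of these called genes except SUS1, and for PEPCK, PPDK and Os02g0802500. The fermentation, low-oxygen and carbon metabolism genes thus largely shared an order of libraries and are not independent observations. The source of this order was not tested. In bulk RNA, fewer cells that express a gene and less of its RNA per cell cannot be told apart, which holds for every family described here.

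A total of 6 histone genes were lower in Os1400 roots, the largest fall being that of a linker histone. Linker histone H1 binds the DNA between nucleosomes, and histone H4 is part of the nucleosome core. The H1 gene Os04g0253000, named G1/S-phase gene H1 (chromosome 4, 9993501 to 9994503, plus strand), had 6.81, 5.9 and 5.43 CPM in Os1400 and 21.3, 20.9 and 20.2 CPM in WT (log2FC -1.78 ± 0.19, edgeR adjusted p = 0.000433). It too kept its call with all 12 libraries in the fit (adjusted p = 0.0297). The H1 gene Os06g0130800 had 200, 240 and 193 CPM in Os1400 and 436, 378 and 429 CPM in WT (log2FC -0.97 ± 0.11, adjusted p = 0.000585). Os09g0553100, which carries the histone fold of H4, had 98.7, 111 and 109 CPM in Os1400 and 194, 222 and 206 CPM in WT (log2FC -0.96 ± 0.10, adjusted p = 0.000336). The libraries of each genotype lay close together for these 3 genes, with a gap between the genotypes.

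All 8 H1 genes and all 10 genes with the H4 fold that were tested had log2FC below 0, with 2 called in each list and medians of -0.34 and -0.41. The summed level of the H1 genes was 608 to 709 CPM in Os1400 and 950 to 979 CPM in WT. The H3 genes Os03g0390600 and Os04g0450800, picked by name after their values were seen, fell with log2FC of -0.59 ± 0.10 (edgeR adjusted p = 0.00972) and -0.61 ± 0.10 (adjusted p = 0.0118). Both calls were lost without Os1400 replicate 2, WT replicate 1 or WT replicate 3. The second called H4 gene, Os10g0539500, fell with a log2FC of -0.53 ± 0.10 (adjusted p = 0.0305) and lost its call in each of the 6 fits. Histone genes are near-identical copies, and how the counting treated reads shared between them is not stated, so the values of single genes are uncertain. Among the 29 genes of the core histone domain list, edgeR called 0 (6 below WT at nominal p) and DESeq2 called 1 lower, and 27 had log2FC below 0 with a median of -0.16.

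Most ribosomal protein genes had values below WT without passing the test, and 2 chaperone genes fell. Of 208 ribosomal protein genes, edgeR called 0 and DESeq2 called 1 lower, 29 were lower and 1 higher at nominal p, and 168 had log2FC below 0 (median -0.15). The summed level of the 224 listed genes, which include those not tested, was 26300 to 27500 CPM in Os1400 and 28300 to 34500 CPM in WT. The HSP70 gene Os11g0703900, a cytosolic chaperone, had 2590, 2440 and 2320 CPM in Os1400 and 4130, 3470 and 3310 CPM in WT (log2FC -0.57 ± 0.09, edgeR adjusted p = 0.00924). It was the called member among 21 HSP70 genes, whose median log2FC was -0.10, and its call was lost without Os1400 replicate 2, Os1400 replicate 3 or WT replicate 1 (up to 0.0893). The small heat shock protein HSP17.9 (Os03g0266300), 1 of 25 HSP20 genes, fell with a log2FC of -0.67 ± 0.14 and an adjusted p of 0.0465, which was lost in each of the 6 fits.

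A glutathione S-transferase and a thionin gene were nearly silent in Os1400 roots and expressed in WT. Glutathione S-transferases of the tau class conjugate glutathione to xenobiotics and stress products. GSTU43 (Os03g0595600, named tau glutathione S-transferase 43) had 4, 0 and 0 counts in Os1400 and 1380, 1353 and 1781 counts in WT, which are 34.4, 33.4 and 52.9 CPM in WT (edgeR adjusted p = 2.51e-07). The other called member of this list of 75, the phi-class gene GSTF14 (Os03g0134900), fell with a log2FC of -0.61 ± 0.13 (adjusted p = 0.044), and the call held only without Os1400 replicate 3 (up to 0.277 in the other fits). The list as a whole had a median log2FC of 0.01, the same as all genes tested.

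Thionins are small, cysteine-rich antimicrobial peptides. Thionin 7 (Os06g0514100, chromosome 6, 18726431 to 18727299, minus strand) had 0.113, 0.0723 and 0.1 CPM in Os1400, close to the level of 3 counts, against 12.1, 14.5 and 10.7 CPM in WT (edgeR adjusted p = 8.27e-07). The thionin 4 gene Os06g0513781 of the same chromosome region had 0.199, 0.409 and 0.525 CPM in Os1400 and 9.63, 4.3 and 3.21 CPM in WT (log2FC -3.90 ± 0.58, adjusted p = 0.00456), a call that was lost without WT replicate 1 (adjusted p = 0.083). Of 14 thionin genes found by name, 2 fell, 0 rose and the median log2FC was -0.27. These neighbors resemble each other, so the split of reads between them is uncertain.

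Germin-like proteins are cell wall proteins of the cupin family, several of which are linked to disease resistance in rice on chromosome 8. A run of 3 such genes within 5238999 to 5255230 of that chromosome were lower, of 4 genes tested in the stretch, which was chosen after its calls were seen. Germin-like protein 8-6 (Os08g0189500) had 3.38, 2.58 and 1.3 CPM in Os1400 and 15.2, 13.4 and 32.5 CPM in WT (log2FC -3.08 ± 0.40, edgeR adjusted p = 0.00184). Germin-like proteins 8-8 (Os08g0189700) and 8-9 (Os08g0189850) fell with log2FC of -1.95 ± 0.29 (adjusted p = 0.00445) and -2.31 ± 0.32 (adjusted p = 0.00319). All of these calls held in each fit that left out a library. Over the whole list of 32 germins and other cupins, these were the 3 called lower with 0 higher, 4 were higher and 5 lower at nominal p, and the median log2FC was -0.04, while DESeq2 called 1 higher and 5 lower. As the genes of this cluster are alike, reads may be shared between them.

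Class III peroxidases are secreted enzymes that act on cell wall phenolics and hydrogen peroxide. In the list of class III and other heme peroxidases, 4 genes fell and 0 rose of 119 tested, with a median log2FC of -0.12. Peroxidase 34 (Os03g0121300) had 20.2, 21.2 and 16.7 CPM in Os1400 and 49.4, 69.8 and 38.2 CPM in WT (log2FC -1.44 ± 0.20, edgeR adjusted p = 0.00319). Peroxidase 46 (Os03g0369000) had 23.8, 16.2 and 13.6 CPM in Os1400 and 52.3, 37 and 43.3 CPM in WT (log2FC -1.31 ± 0.21, adjusted p = 0.00746). Peroxidase 34 kept its call in all 6 fits that left out a library. The calls of peroxidase 46 and of a peroxidase-like unannotated transcript (chromosome 3, 1190084 to 1191958, minus strand, log2FC -2.32 ± 0.40, adjusted p = 0.0136) were lost without Os1400 replicate 2 or WT replicate 1, and that of this transcript also without WT replicate 3 (up to 0.0956). Peroxidase 95 (Os07g0104500), with a log2FC of -0.89 ± 0.18 (adjusted p = 0.0353), was lost without Os1400 replicate 1 or 3 or WT replicate 1 or 3 (up to 0.17). The summed level of the 139 listed peroxidase genes, which include those not tested, was 10200 to 10800 CPM in Os1400 and 11700 to 13600 CPM in WT. A chitinase (C10122, Os08g0518900) fell with a log2FC of -2.11 ± 0.38 (adjusted p = 0.0164), a call lost without Os1400 replicate 2 or 3 or WT replicate 1 or 2 (up to 0.0774). All 7 tested genes of the Bet v I (PR10) list had log2FC below 0 (median -0.38), but edgeR called 0 of them, with 2 lower at nominal p, and DESeq2 called 0.

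Among genes of phosphate and hormone biology, SPX2 (Os02g0202200), a member of the SPX proteins that sense phosphate status through inositol pyrophosphates, had 0.0567, 0.482 and 0 CPM in Os1400 and 7.64, 3.8 and 7.48 CPM in WT (edgeR adjusted p = 0.0134). It was the 1 called gene of 11 in the SPX list, and its call was lost without WT replicate 1 or WT replicate 3 (up to 0.0885). LPR3 (Os01g0127000), a multicopper oxidase of a family that acts in the root response to low phosphate in Arabidopsis, had 14.4, 20.5 and 10.4 CPM in Os1400 and 39.9, 37.7 and 30.2 CPM in WT (log2FC -1.25 ± 0.22, adjusted p = 0.0167). The call of LPR3 was lost without Os1400 replicate 1 or 3 or WT replicate 1 or 2 (up to 0.1). DWARF4 (Os03g0227700), a P450 of brassinosteroid synthesis, had 116, 124 and 105 CPM in Os1400 and 176, 175 and 166 CPM in WT (log2FC -0.58 ± 0.10, adjusted p = 0.0136), and was lost without Os1400 replicate 3 or WT replicate 1 or 3 (up to 0.0789). MATE2 (Os05g0554000), an exporter of the multidrug and toxic compound extrusion family, had 67, 61.1 and 43.3 CPM in Os1400 and 135, 133 and 174 CPM in WT (log2FC -1.37 ± 0.16, adjusted p = 0.000898), and its call held in all 6 fits with a library left out. All of these genes had Os1400 libraries wholly below the WT libraries.

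A total of 3 cytokinin response genes were higher in Os1400 roots. A-type response regulators are induced by cytokinin within a short time and dampen cytokinin signaling. RR10 (Os12g0139400, chromosome 12, 1915773 to 1917702, plus strand) had 62.2, 70.2 and 55.5 CPM in Os1400 and 26.9, 32.9 and 25.4 CPM in WT, a log2FC of 1.14 ± 0.14 (edgeR adjusted p = 0.0013). RR9 (Os11g0143300) had 52.1, 57.6 and 48.2 CPM in Os1400 and 27.2, 27.4 and 22.4 CPM in WT (log2FC 1.03 ± 0.14, adjusted p = 0.00198). These are close copies on the duplicated arms of chromosomes 11 and 12, so reads may be shared between them. RR2 (Os02g0557800), a gene of its own, had 108, 116 and 115 CPM in Os1400 and 61.1, 75 and 68 CPM in WT (log2FC 0.73 ± 0.11, adjusted p = 0.00524).

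Of the 7 A-type regulators tested, 3 rose and 0 fell, and 6 had log2FC above 0. The summed level of the 9 listed was 316 to 344 CPM in Os1400 and 176 to 220 CPM in WT. RR4 (Os01g0952500) and RR6 (Os04g0673300) had log2FC of 0.57 ± 0.13 and 0.59 ± 0.24, without passing the test (edgeR adjusted p = 0.0752 and 0.425). The call of RR2 was lost without Os1400 replicate 2 (adjusted p = 0.0501), whereas RR9 and RR10 kept theirs in all 6 fits. The median log2FC of the 7 genes was 0.59, beside 0.01 over all genes tested.

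Single genes of metal handling were called in both directions, chosen here by name after their values were seen, with the exception of NAS3. Nicotianamine synthase makes the chelator from which grasses build phytosiderophores. NAS3 (Os07g0689600) had 105, 83.1 and 85.4 CPM in Os1400 and 55, 43.1 and 50 CPM in WT (log2FC 0.89 ± 0.13, edgeR adjusted p = 0.00502). VIT2 (Os09g0396900), which moves iron into the vacuole in rice, had 435, 331 and 324 CPM in Os1400 and 182, 151 and 195 CPM in WT (log2FC 1.05 ± 0.13, adjusted p = 0.00154). Both held in all 6 fits that left out a library. ZIFL5 (Os11g0135000), a facilitator related to phytosiderophore exporters, had a log2FC of 0.79 ± 0.13 (adjusted p = 0.00951) and lost its call without Os1400 replicate 2 or WT replicate 1 (up to 0.0768). Metallothionein I-3a (Os01g0200700), a small metal-binding protein, had 188, 171 and 159 CPM in Os1400 and 107, 111 and 108 CPM in WT (log2FC 0.67 ± 0.10, adjusted p = 0.00517). In contrast, copper transporter 5 (Os05g0424700) had 16, 11.2 and 10.6 CPM in Os1400 and 25.2, 20.6 and 30.1 CPM in WT (log2FC -1.01 ± 0.21, adjusted p = 0.0453), a call lost without Os1400 replicate 2 or 3 or WT replicate 1 or 3 (up to 0.249). NAS2 (Os03g0307200) was at 4.57, 3.47 and 10.6 CPM in Os1400 and 11.8, 15.2 and 17.8 CPM in WT (log2FC -1.26 ± 0.36), which did not pass edgeR (adjusted p = 0.183) but was called lower by DESeq2 (adjusted p = 0.0348). Of the 7 iron acquisition genes tested, edgeR called 1 higher (NAS3) and DESeq2 called 1 higher and 1 lower, with a median log2FC of -0.07. Of 12 ZIP metal transporters, edgeR and DESeq2 called 0, with 1 higher at nominal p.

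Both SWEET genes named here were higher. SWEET proteins carry sugars across membranes without energy input. SWEET12 (Os03g0347500) had 41.5, 45.2 and 30.3 CPM in Os1400 and 19.5, 12.8 and 16.8 CPM in WT (log2FC 1.25 ± 0.20, edgeR adjusted p = 0.00684). SWEET3A (Os05g0214300) had 17.9, 18.4 and 14 CPM in Os1400 and 7.91, 6.42 and 8.91 CPM in WT (log2FC 1.11 ± 0.22, adjusted p = 0.0312). Of 12 tested SWEET genes, 2 rose and 0 fell, with a median log2FC of 0.47. The call of SWEET12 was lost without Os1400 replicate 2 (adjusted p = 0.0687) and that of SWEET3A held only without Os1400 replicate 3 (up to 0.189 in the other fits). A sodium/hydrogen exchanger (Os05g0382200) was at 14.1, 15.1 and 16.5 CPM in Os1400 and 6.34, 5.09 and 5.11 CPM in WT (log2FC 1.47 ± 0.22, adjusted p = 0.00472), and was also called with all 12 libraries in the fit (adjusted p = 0.0297).

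**Figure D3:**
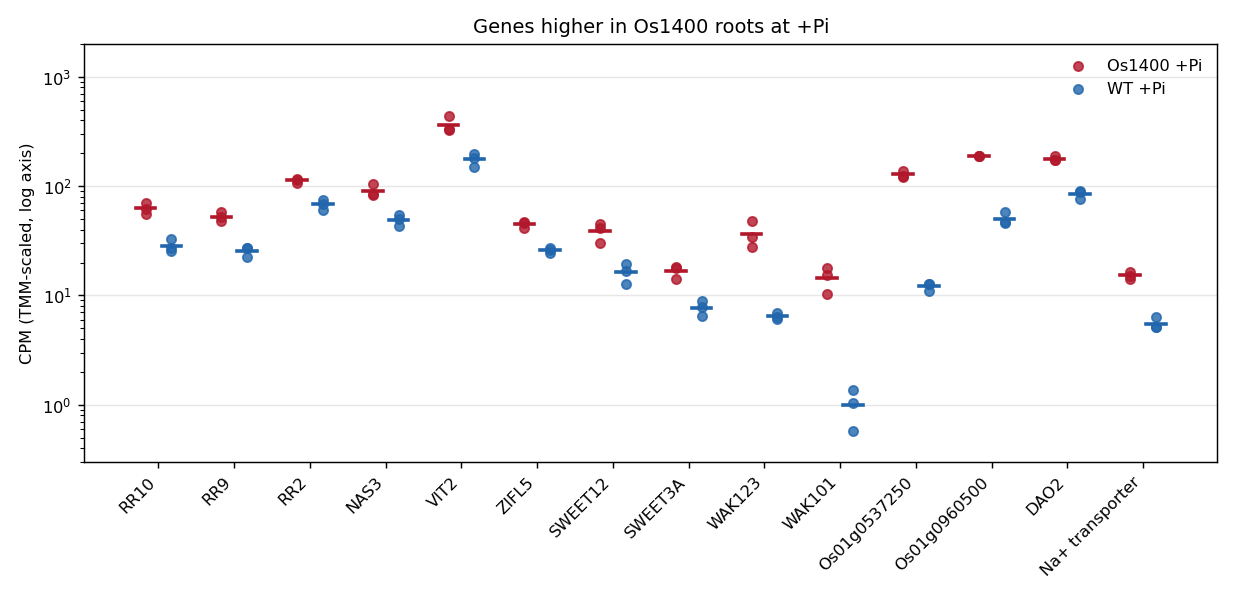
Each point is the CPM of 1 library on a log axis, Os1400 +Pi in red to the left of WT +Pi in blue, with bars at the mean of 3 libraries. In each of the 14 genes shown, every Os1400 library lay above every WT library, as in every gene called higher. Na+ transporter stands for Os05g0382200.

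Of 937 protein kinase genes, 6 were higher and 0 lower (median log2FC 0.04), a share of 0.64% beside the 0.54% called higher among all genes tested, while DESeq2 called 15 higher and 1 lower. The calls included wall-associated kinases. Wall-associated kinases (WAKs) span the plasma membrane and bind pectin. WAK123 (Os11g0694100, chromosome 11, 28356988 to 28362710, plus strand) had 34.2, 28 and 47.7 CPM in Os1400 and 6.84, 6.37 and 6.12 CPM in WT (log2FC 2.51 ± 0.21, edgeR adjusted p = 5.05e-05). WAK101 (Os10g0142600) had 17.8, 15.4 and 10.3 CPM in Os1400 and 0.574, 1.36 and 1.04 CPM in WT (log2FC 3.87 ± 0.36, adjusted p = 0.000141). Both were called with all 12 libraries in the fit as well (adjusted p = 0.0384 and 0.033), and 2 of 44 tested WAK genes rose and 0 fell (median log2FC 0.15). WAK genes form clusters of similar copies, so their values are uncertain to the extent that reads were shared. A receptor-like kinase with an antifungal domain (Os07g0542400) rose with a log2FC of 0.84 ± 0.14 (adjusted p = 0.00831), lost without Os1400 replicate 2 or WT replicate 3 (up to 0.0708).

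The genes of smallest p among those higher included several with little known of their function. Os01g0537250, with a domain of unknown function (DUF3778), had 125, 122 and 137 CPM in Os1400 and 12.6, 12.8 and 11 CPM in WT (log2FC 3.40 ± 0.12, edgeR adjusted p = 2.58e-08). Os03g0299700 has the same domain and had 134, 106 and 111 CPM in Os1400, against 2.27, 0 and 1.07 CPM in WT (log2FC 6.71 ± 0.58, adjusted p = 6.75e-05). The 8 tested genes of this domain had 2 higher and 0 lower members and a median log2FC of 0.01. Os01g0960500, which joins a copine and a RING finger domain as in ubiquitin ligases, had 187, 188 and 189 CPM in Os1400 and 47.3, 58 and 46.2 CPM in WT (log2FC 1.90 ± 0.11, adjusted p = 1.67e-06). It was called in every alternative fit, including the 12-library fit (adjusted p = 0.0203).

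Among named enzymes, beta-1,3-glucanase 13 (Os07g0539300), of a family that cuts callose, had 164, 175 and 144 CPM in Os1400 and 62.7, 68.1 and 77.4 CPM in WT (log2FC 1.21 ± 0.12, edgeR adjusted p = 0.000177). Diamine oxidase 2 (DAO2, Os04g0269600), of a family that oxidizes polyamines, had 189, 173 and 174 CPM in Os1400 and 90, 76.2 and 87.8 CPM in WT (log2FC 1.08 ± 0.11, adjusted p = 0.000183). Both kept their calls in all 6 fits that left out a library. Of 188 tested P450 genes, 3 rose and 1 fell (DWARF4), with a median log2FC of 0.10, and the P450 Os05g0424300 rose with a log2FC of 0.95 ± 0.12 (adjusted p = 0.00139). The P450 Os09g0447300 rose with a log2FC of 0.71 ± 0.12 (adjusted p = 0.0124), which was lost without Os1400 replicate 2, WT replicate 1 or WT replicate 3 (up to 0.0893).

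A set of 44 genes had at most 3 counts in every WT library and at least 30 in every Os1400 library, and 1 gene had the reverse pattern. These limits are not a test, and some of the 44 genes did not pass edgeR (adjusted p of up to 0.249, Os07g0120500). Os07g0115200 (OsSTA185, chromosome 7, 834313 to 835728, minus strand) had 16211, 15578 and 15975 counts in Os1400 and 0 in each WT library, at least 4210-fold higher against 3 counts in each WT library. OPR4 (Os06g0215900), a 12-oxophytodienoate reductase, had 1242, 395 and 268 counts in Os1400 and 0 in each WT library. Pectin methylesterase 1 (Os03g0309400), which modifies cell wall pectin, had 87, 211 and 391 counts in Os1400 and 0 in each WT library. OsSTA185, OPR4 and pectin methylesterase 1 met the same limits at low-Pi, so their pattern is not particular to +Pi. The gene with the reverse pattern, TCP25 (Os09g0521300), a transcription factor of the TCP family, had 0 counts in each Os1400 library and 30, 32 and 69 in WT, without passing edgeR (adjusted p = 0.0957), though DESeq2 called it (adjusted p = 0.000153).

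Lists of SL, auxin and defense regulation held no call by edgeR. Of 11 SL biosynthesis and signaling genes tested, edgeR called 0 and DESeq2 called 0, with 1 higher at nominal p. D14 (Os03g0203200), the SL receptor, had 703, 841 and 759 CPM in Os1400 and 811, 767 and 902 CPM in WT (log2FC -0.11 ± 0.10). D3 (Os06g0154200), the F-box protein of SL signaling, had 79.8, 80.2 and 80.2 CPM in Os1400 and 79.2, 54.9 and 59.9 CPM in WT (log2FC 0.31 ± 0.14, edgeR adjusted p = 0.467). D53 (Os11g0104300), the repressor of the pathway, had a log2FC of 0.20 ± 0.12 (adjusted p = 0.637). For these genes, the differences were within a few standard errors, and such values do not show that the genotypes are alike.

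The 26 AUX/IAA genes, repressors of auxin signaling, had 0 calls by edgeR and 2 lower by DESeq2, 4 lower and 0 higher at nominal p, and 21 log2FC below 0 (median -0.18). Their summed level was 2070 to 2340 CPM in Os1400 and 2450 to 2530 CPM in WT. Of 10 GH3 synthetases, which conjugate auxin to amino acids, edgeR called 0 and DESeq2 called 1 lower, with 1 lower at nominal p (median log2FC -0.10). Of 14 PIN and PIN-like auxin carriers, edgeR called 0 and DESeq2 called 1 lower, with 3 higher and 2 lower at nominal p (median -0.03). The 78 WRKY factors, regulators of defense, had 0 calls by edgeR and 2 higher by DESeq2, 5 higher and 2 lower at nominal p, and 54 log2FC above 0 (median 0.16). The 270 NB-ARC immune receptors, which recognize pathogen effectors, likewise had 0 calls by edgeR, 8 higher by DESeq2, 26 higher and 5 lower at nominal p, and 184 log2FC above 0 (median 0.18). The 300 listed NB-ARC genes, which include those not tested, summed to 2760 to 2850 CPM in Os1400 and 2420 to 2680 CPM in WT. Of the 61 lists fixed by domain or gene identifier, 42 held no call by edgeR. The lists together had 33 called genes of 3880 tested (0.851%), near the 0.958% called among all genes.

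**Figure D4:**
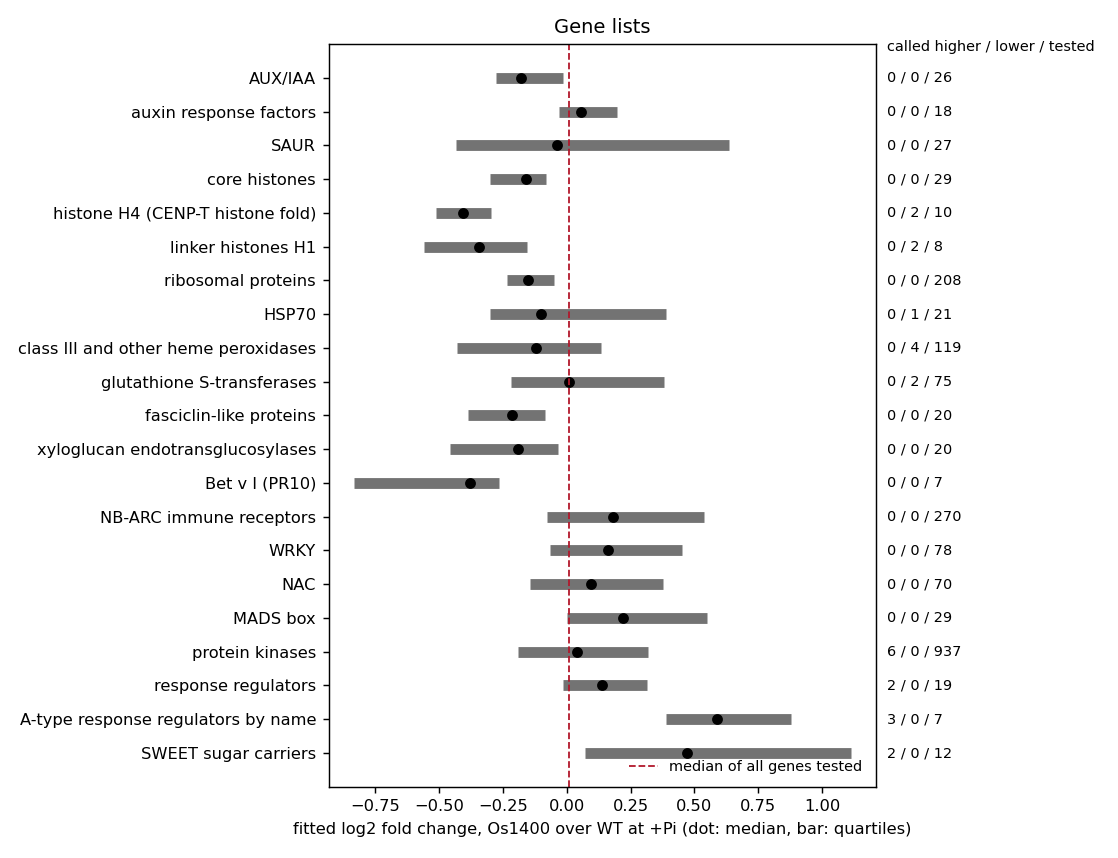
For each list, the dot is the median fitted log2FC (Os1400 over WT, +Pi) of its tested genes and the bar spans the quartiles, with the counts of genes called higher, called lower and tested at the right. The dashed line is the median of all genes tested, 0.01. The medians of the H1, H4, PR10 and fasciclin-like lists lie below it and those of the A-type response regulator, SWEET and MADS box lists above it.

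Root and shoot markers were checked in the same libraries. RCc3 (Os02g0662000), a marker of rice roots, had 908, 735 and 1170 CPM in Os1400 and 1190, 1450 and 1340 CPM in WT (log2FC -0.50 ± 0.14, edgeR adjusted p = 0.183). DESeq2 called RCc3 lower (adjusted p = 0.0108), as did edgeR without Os1400 replicate 3 (adjusted p = 0.0327) but in no other fit that left out a library. The summed level of the 6 listed root markers was 5140 to 5410 CPM in Os1400 and 5320 to 6190 CPM in WT. Of the 4 root markers tested, 2 were lower and 0 higher at nominal p. The 18 listed green tissue markers, 15 of them tested, summed to 50.2 to 71.9 CPM in Os1400 and 41.2 to 58.8 CPM in WT. Of the green tissue markers, PSBS1 (Os01g0869800) rose with a log2FC of 1.35 ± 0.28 (adjusted p = 0.0465), a call that held only without WT replicate 3 (up to 0.227 in the other fits). The part of differences in root cell types or of shoot tissue in the results was not tested.

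Genes called at +Pi were set beside the independent low-Pi libraries of the same genotypes. Of the 149 higher genes in the 12-library fit, 125 (83.9%) had the same sign at low-Pi, beside 66.6% of all genes with a log2FC above 0 at +Pi. Of these 149, 71 were called at low-Pi in the same direction and 6 in the opposite direction, where 18.9% of all 28691 genes were called higher and 8.32% lower. Of the 116 lower genes, 94 (81.0%) had the same sign, beside 44.7% of all genes with a log2FC below 0 at +Pi, and 61 were called at low-Pi in the same and 10 in the opposite direction. The low-Pi WT libraries had counts for only 17711 to 22077 genes, against 28082 to 30375 genes in the Os1400 low-Pi libraries, and the median log2FC of all genes at low-Pi was 0.35. The part of this gap in the low-Pi values was not tested.

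For some genes the genotype difference changed with the Pi supply. The interaction term over all 12 libraries called 3838 of 28691 genes (13.4%), and 43 of the 266 genes of the +Pi comparison (21 higher and 22 lower). In the scaling over 12 libraries, PEPCK was at 11.9, 9.76 and 8.34 CPM in Os1400 low-Pi roots and at 3.68, 3.63 and 4.08 CPM in WT low-Pi roots, higher in Os1400, whereas at +Pi it was at 16.8, 9.58 and 10.6 CPM in Os1400 and at 49.3, 71.7 and 66.3 CPM in WT. RR10 was at 39, 33.7 and 27.1 CPM in Os1400 low-Pi roots and at 48.1, 79.3 and 118 CPM in WT low-Pi roots, the reverse of its +Pi order. HSP70 (Os11g0703900) was at 2370, 2690 and 2250 CPM in Os1400 low-Pi roots and at 884, 1040 and 1180 CPM in WT low-Pi roots. The H1 gene Os04g0253000 kept its direction, with a low-Pi log2FC of -2.03 (adjusted p = 0.000297) and no call for the difference (adjusted p = 0.758), as did WAK123 with a low-Pi log2FC of 2.49 (adjusted p = 0.000733) and Os05g0469800 with -2.44 (adjusted p = 0.000439). Of the other genes in the fermentation lists called at +Pi, PDC1 and Os06g0104900 were also lower in every Os1400 library at low-Pi. In contrast, the genotypes overlapped at low-Pi for ADH1 and ADH2. ADH2 was at 449, 234 and 471 CPM in Os1400 low-Pi roots and at 303, 165 and 721 CPM in WT low-Pi roots.

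**Figure D5:**
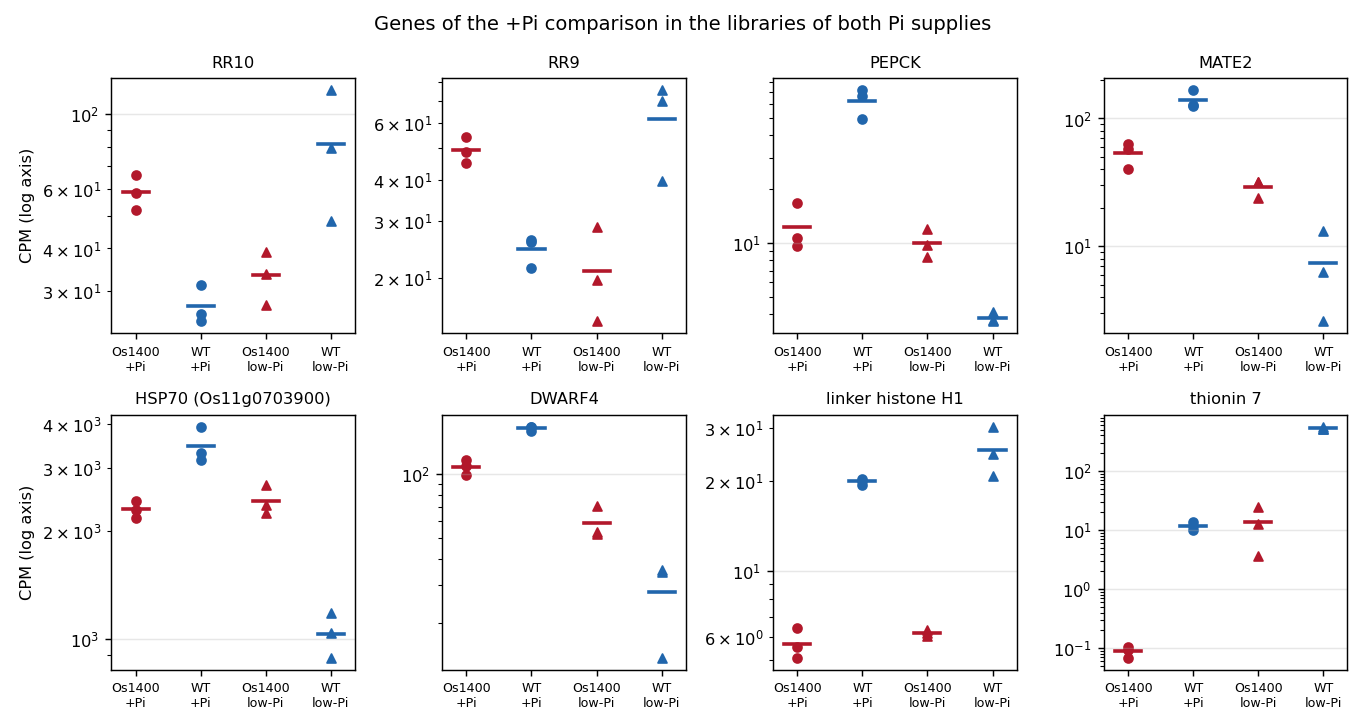
Each panel shows the CPM of 1 gene, scaled over all 12 libraries, on a log axis, with Os1400 in red, WT in blue, circles for +Pi, triangles for low-Pi and bars at the mean of 3 libraries. In RR10, RR9, PEPCK, MATE2, HSP70 and DWARF4 the order of the genotypes is reversed between the Pi supplies, whereas linker histone H1 and thionin 7 are lower in Os1400 at both.

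The called genes lay on all 12 chromosomes, with 0.671% of tested genes called on chromosome 1 and 1.29% on chromosome 11. Of the 266 genes, 61 (22.9%) had another called gene within 100 kb, against 3901 (14.0%) of all genes tested. On chromosome 11, all 5 called genes between 18491097 and 18650782 were higher, of 9 tested there, and all 3 tested between 18372832 and 18396143 were higher. The borders of both stretches were set at their outermost called genes after the calls were seen, so these shares follow in part from that choice. Unannotated transcripts made up 2574 of the genes tested, of which 28 were higher and 7 lower (1.36%), whereas annotated genes with a protein domain had 60 higher and 71 lower of 15568 (0.841%). The coordinates are those of the deposited tables, which name no genome build.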

How the data were processed

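RNA of roots was sequenced as paired-end libraries, and the labels and column names gave each library its genotype, Pi supply and replicate number. The authors mapped reads to rice transcripts and deposited raw counts per gene and FPKM values, with HISAT2 2.0.5 and featureCounts 1.5.0-p3 named in the submitters' processing notes. The genome build and whether counting used strand are not given in the sources used here. The deposited tables also hold the authors' fold changes and p-values, which were not used, as were 28 further columns of repeated or averaged values.

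Counts of 32722 genes were analysed as deposited with edgeR 4.0.16 in R 4.3.3 (TMM scaling, filterByExpr with a minimum of 10 counts and 15 in total, quasi-likelihood test on the 6 +Pi libraries). P-values were adjusted by Benjamini-Hochberg, and a call is an adjusted p of 0.05 or less. DESeq2 1.42.0, other scalings and filters, a replicate block and fits without each library were alternatives. CPM use the TMM factors, and the FPKM values the authors deposited were read only for the edited gene. The limit of 3 counts covers counting error only. Standard errors were derived from the edgeR test, as the absolute log2FC over the square root of its F statistic. They include the spread between libraries.

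Named genes are the 10 called genes with a name or domain and the smallest p in each direction, up to 3 called members of each list (otherwise the member with the smallest p), on/off genes (at most 3 against at least 30 counts) with the most counts, and SL genes. The fermentation, glycolysis, low-oxygen, histone H3 and H4, germin, thionin 4, RR2, RR4, RR6, NAS2, VIT2, ZIFL5, metallothionein, copper transporter, SWEET, OPR4 and sodium/hydrogen exchanger genes outside this rule, peroxidase 95 and the second gene of a pair were chosen after their values were seen. The members and lists were chosen with earlier results of these data known. On simulated counts with 200 changed genes, edgeR recovered 42% at a log2FC of 1 and 69% at 2, and the interaction term 11.5% at 2. At a log2FC of 1, edgeR called 84 changed and 10 unchanged genes, and DESeq2 called 93 and 40. At 2, edgeR called 138 changed and 5 unchanged genes, and DESeq2 called 147 and 54. The simulated counts were drawn with dispersions and scaling factors fitted by edgeR, so they cannot rank the 2 tools. Calls made by 1 tool alone remain uncertain.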

Additional observations from a re-analysis of the deposited data

Results flagged for a closer look

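For 17 of the genes described, the difference between the genotypes was not the same at both Pi supplies by the interaction term of edgeR over all 12 libraries. The differences are given as the low-Pi log2FC minus the +Pi log2FC (Os1400 over WT), with adjusted p-values over all genes. All of them rest on the low-Pi WT libraries, in which far fewer genes had a count, and their part in these differences was not tested.

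Among the genes higher in Os1400 at +Pi, RR10 (Os12g0139400) differed by -2.42 ± 0.40 (adjusted p = 0.003) and RR9 (Os11g0143300) by -2.57 ± 0.40 (adjusted p = 0.0021), and both were called lower in Os1400 at low-Pi. The sodium/hydrogen exchanger Os05g0382200 differed by -1.67 ± 0.29 (adjusted p = 0.00345), with a log2FC of -0.23 at low-Pi. WAK101 (Os10g0142600) differed by 8.58 (adjusted p = 0.000825), a fitted value against low-Pi WT libraries at or near 0 that is no estimate of size.

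Of the genes lower in Os1400 at +Pi, PEPCK (Os10g0204400) differed by 3.74 ± 0.39 (adjusted p = 0.000299), MATE2 (Os05g0554000) by 3.36 ± 0.62 (adjusted p = 0.00509), HSP70 (Os11g0703900) by 1.82 ± 0.21 (adjusted p = 0.000464) and DWARF4 (Os03g0227700) by 1.67 ± 0.41 (adjusted p = 0.0207). Each of these was called higher in Os1400 at low-Pi. ADH1 (Os11g0210300) differed by 1.26 ± 0.30 (adjusted p = 0.0159) and SPX2 (Os02g0202200) by 3.77 ± 1.12 (adjusted p = 0.0476). The differences of the chitinase C10122 (Os08g0518900), 8.88 (adjusted p = 0.00277), and of the glycosyltransferase Os06g0590800, 6.85 (adjusted p = 0.0193), are again fitted values against low-Pi WT libraries at or near 0.

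The H3 genes Os03g0390600 and Os04g0450800 differed by -1.85 ± 0.18 (adjusted p = 0.0002) and -1.62 ± 0.17 (adjusted p = 0.00033), and the H4 gene Os09g0553100 by -1.45 ± 0.25 (adjusted p = 0.0033), all with lower Os1400 levels at both Pi supplies and a larger difference at low-Pi. LPR3 (Os01g0127000) likewise differed by -1.68 ± 0.50 (adjusted p = 0.0482). D27 (Os11g0587000), an SL biosynthesis gene that the tables annotate with a PPR repeat, differed by -3.52 ± 0.93 (adjusted p = 0.0279), with no call at +Pi.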

How the results depend on the processing

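None of the 266 called genes changed direction in the 13 alternatives. A change of sign in a gene called in neither fit was not counted as a reversal. Of 4125 values of single genes under an alternative, 3185 kept their side of the threshold, 890 lost it and 50 gained it, and 32 of the 266 called genes kept their call in all 13 alternatives (110 in all except the fit with 12 libraries). DESeq2 called 368 genes higher and 294 lower, and no filter on low counts gave 253 and 216. With all 12 libraries in the fit 27 and 6 were called, and the share of higher genes was 81.8% in place of 56.4%. In that fit the spread of the low-Pi libraries enters the test, and the genes tested and the scaling change too. The part of each in the lower number was not tested. Leaving out 1 library gave 79 to 136 higher and 54 to 118 lower genes, with 48.4% higher without Os1400 replicate 1 and 66.2% without WT replicate 1. The lower genes numbered 54 without WT replicate 1 and 55 without WT replicate 3. RLE scaling, upper-quartile scaling and a minimum mean of 50 counts stayed within 1.5 times the main counts.

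Replicate numbers did not pair the libraries (correlations of the deviations of same-numbered libraries 0.0284, 0.00667 and -0.0321), and a fit with the replicate block called 146 higher and 130 lower genes. Of the +Pi calls, 43 were also called for a difference between Pi supplies, 35 with the replicate block and 29 to 66 without 1 library, the highest without WT low-Pi replicate 2 or 3. Counts near 3 in a library, about 0.1 CPM, limit what can be said of silent genes.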
